A study of Homo sapiens with 23 samples.

Results

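MCF10A-ER-Src cells are human mammary epithelial cells of an established, non-transformed line that carry the Src kinase fused to the hormone-binding domain of the estrogen receptor, and the fusion becomes active when tamoxifen (TAM) is given. Every array described here comes from this 1 line, so all groups carry the fusion. The comparison concerns cells that never received TAM. They were seeded with 25 nM of an siRNA pool against STAT3 (siSTAT3), grown for 48 h and then given ethanol (EtOH), the vehicle of TAM. RNA was harvested either 4 h or 24 h after the vehicle, which is 52 h or 72 h after seeding. The members are the 3 arrays titled siSTAT3 EtOH at 24 h and the 3 titled siSTAT3 EtOH at 4 h, chosen by their titles alone, and they are 6 of the 23 arrays of the series. The same pair of times in cells given a non-targeting siRNA pool (siNEG), again 3 arrays at each time, is set beside them. All cells grew in medium with charcoal-stripped horse serum, EGF, hydrocortisone, cholera toxin and insulin. Between the groups of the comparison the time with EtOH, the time since the siRNA was added and the density of the culture all changed together and cannot be told apart. The replicates are called biological in the methods, but the labels do not state whether the 3 came from separate cultures. The p-values measure the spread between replicate arrays, pooled over all 8 groups of the series. This spread may be technical.

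Epithelial cells in a medium with growth factors go on dividing until they are crowded. Dividing cells use E2F factors to switch on genes of DNA replication, and a complex containing MYB-like and FOXM1 factors to switch on genes of mitosis. Cells on a stiff and empty surface keep the coactivator YAP in the nucleus with its DNA-binding partners of the TEAD family, whereas crowding moves it out, and keratinocytes that crowd can start to differentiate. STAT3 is the transcription factor that cytokines of the IL6 family and Src activate by phosphorylation, and the comparison asks how the RNA of such cultures changes with time when little STAT3 RNA is left.

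RNA was hybridised to Affymetrix arrays of 54675 probe sets, short sets of probes that each read 1 stretch of a transcript. Each value is a MAS5 signal, a background-corrected and scaled brightness in arbitrary units on a linear scale, and differences are given as log2 changes, 24 h minus 4 h. A gene is said to rise or fall when its brightest probe set had an adjusted p under 0.05 in a limma fit to all 23 arrays. The STAT3 signal was 339, 355 and 298 units at 4 h and 495, 375 and 326 units at 24 h with siSTAT3, against 4091, 4061 and 3914 units at 4 h and 4303, 4104 and 3968 units at 24 h with siNEG, so every array of the siSTAT3 groups lay far below every array of the siNEG groups at both times. Within the siSTAT3 cells the 24 h and 4 h arrays overlapped, and the change, at 0.25 (SE 0.13, adjusted p = 0.32), was not called. The other STAT3 probe sets had changes of 0.36, 0.04 and 0.28, and none of them passed either. Across the 6 arrays the median signal was 75.1 to 84.7 units, highest on 24 h replicate 3, and the 3 prime to 5 prime signal ratio of ACTB was 1.29 to 1.38. Precision is limited by the number of arrays.

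The cells had the markers of a mammary epithelial line. KRT5, a keratin of basal cells, had 16077 ± 1222 units at 4 h and 14885 ± 896 units at 24 h (each the mean ± SD of n = 3 arrays), and KRT18, a keratin of luminal cells, had 15736 ± 555 units at 4 h and 15354 ± 714 units at 24 h. Of 5 basal markers KRT14 rose and LAMB3 fell, by 1.02 on the log2 scale, and the summed signal of the 5 was 44240 to 45127 units at 4 h and 38414 to 40808 units at 24 h. Of 11 luminal markers 2 rose, the estrogen receptor gene ESR1 with 0.94 (adjusted p = 0.0107) and the mucin gene MUC1 with 0.54 (adjusted p = 0.000552), and none fell. The summed signal of the 11 was 29075 to 30502 units at 4 h and 30734 to 33026 units at 24 h. Another ESR1 probe set rose by 0.60 (adjusted p = 0.021), and the others, at -0.93 to 1.32, were not called. All cells carry a part of this receptor in the Src fusion, and whether the ESR1 probe sets read it was not tested. PGR, the progesterone receptor of mature luminal cells, was near background with 18.7 ± 23.3 units at 4 h and 14.5 ± 14.0 units at 24 h. Of 8 fibroblast markers, 2 had a mean of at least 100 units, the collagen gene COL1A1 and the proteoglycan gene DCN, and both rose, by 0.45 and 0.52 on the log2 scale. The other COL1A1 probe sets were dimmer, with geometric means of 18.1 to 155 units over all arrays, and none was called. The summed signal of the 8 was 2117 to 2412 units at 4 h and 3173 to 3204 units at 24 h. COL3A1 and LUM, other members of the list, had means under 50 units. Of 6 immune markers only CD14 exceeded 100 units, with a change of 0.42 (adjusted p = 0.00707), and the leukocyte marker PTPRC was near background with 36.7 ± 13.9 units at 4 h and 38.2 ± 9.52 units at 24 h. Of 8 endothelial markers only PECAM1 exceeded 100 units, and KDR, with a mean under 100 units at both times, had a change of 1.42 (adjusted p = 0.0325). The part of these cell types in the results below was not tested, and in such bulk samples fewer cells of a kind and less RNA per cell cannot be told apart.

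Of 19775 genes with a probe set of their own, 1610 rose (8.14%) and 1044 fell (5.28%) between 4 h and 24 h in siSTAT3 cells. Changes were mostly moderate, with a median of 0.55 among the genes that rose and -0.54 among those that fell, and 236 rises and 170 falls were at least 2-fold. By the limits of the study, a p under 1e-04 and an absolute log2 change above 0.5, 2.54% of the genes rose and 2.04% fell. The arrays of the times did not overlap for 33.0% of all genes with siSTAT3 and for 32.3% with siNEG. Called genes nearly always had arrays that did not overlap (2641 of 2654), so the lack of overlap described for them below adds nothing to their calls. Genes of mitosis, DNA replication, epidermal differentiation and cholesterol synthesis were among those that rose. Genes of activin and TGF-beta signals, targets of YAP and TEAD, NF-kappaB targets and genes of the unfolded protein response were among those that fell. The split between rises and falls depended on the scaling of the arrays: 60.7% of the calls were rises as deposited, 58.3% after quantile normalization and 43.7% (960 rises and 1235 falls) when each array was centred on its median. The median over all genes was 0.06 as deposited and -0.02 after centring. Fitting the 6 arrays of the comparison alone, which leaves few degrees of freedom for the spread, gave 422 rises and 325 falls, of which 704 were calls of the fit to all arrays.

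**Figure D1:**
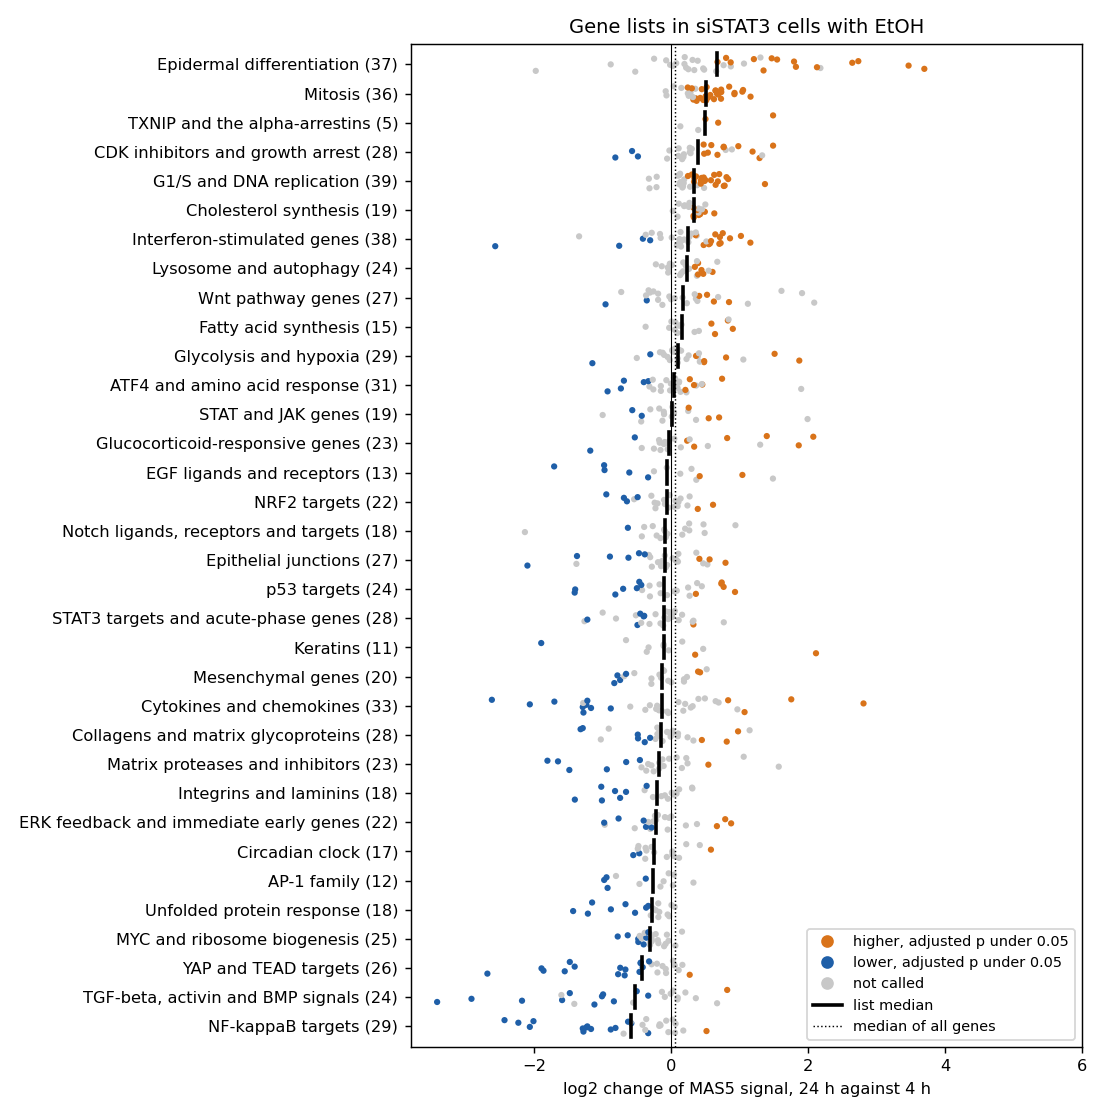
Log2 change of MAS5 signal from 4 h to 24 h (x axis) for the measured members of 34 gene lists (y axis, number of measured genes in brackets) in siSTAT3 cells with EtOH, where each point is a gene, coloured by its call, and black bars are list medians. Epidermal differentiation and mitosis have the highest medians (0.68 and 0.51), and NF-kappaB targets have the lowest (-0.58).

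The 15 largest falls among genes with a signal of at least 200 units included the activin antagonist FST, the activin subunit INHBA, the transcription factor DLX2 and the cytokine LIF. FST encodes follistatin, a secreted protein that binds and blocks activin, and its signal was 10544, 9271 and 9552 units at 4 h and 988, 950.0 and 819.8 units at 24 h. Every array at 24 h was far dimmer than any at 4 h, a change of -3.42 (SE 0.23, adjusted p = 9.15e-08). INHBA encodes the subunit of activin A itself and had 3537, 3645 and 3779 units at 4 h and 454, 532 and 471 units at 24 h, and again the groups were far apart, with -2.91 (SE 0.09, adjusted p = 2.11e-11). DLX2, a homeobox transcription factor, had 1506, 1455 and 1458 units at 4 h and 177, 200.4 and 151 units at 24 h, a change of -3.07 (SE 0.31, adjusted p = 5.12e-06). LIF, an IL6-family cytokine that acts through STAT3, had 2101, 2307 and 2248 units at 4 h and 391, 380.3 and 318 units at 24 h. None of its 24 h arrays came near the 4 h arrays, and the change was -2.62 (SE 0.15, adjusted p = 1.79e-08). The other 11 of the 15 largest falls lay between -2.91 for KANK4, an adaptor of the cell cortex, and -1.97 for IGFBP3, which binds insulin-like growth factors. They included CLDN1, the tight junction protein claudin-1, with -2.10, PMEPA1, a feedback inhibitor of TGF-beta signals, with -2.17, and GBP1, a GTPase induced by interferon, with -1.98.

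Most of the largest rises started from low signals. RARRES1, first described as a gene that responds to retinoids, had 67.6, 90.8 and 65.5 units at 4 h and 565, 643 and 458 units at 24 h, a change of 2.90 (SE 0.21, adjusted p = 1.55e-07) with groups far apart. CXCR4, the receptor of the chemokine CXCL12, had 43.0, 24.1 and 33.9 units at 4 h and 268, 328 and 324 units at 24 h and a change of 3.22 (SE 0.45, adjusted p = 0.000146). COXFA4L3, a small mitochondrial protein, had 84.4, 121 and 156 units at 4 h and 1128, 1190.4 and 944 units at 24 h and a change of 3.21 (SE 0.26, adjusted p = 4.17e-07). All 4 h arrays of these genes lay below all 24 h arrays, but their 4 h signals were low. EHF, an ETS transcription factor of epithelia, started brighter, with 393, 384 and 500.0 units at 4 h and 2146, 2210.2 and 2261 units at 24 h and no overlap, a change of 2.38 (SE 0.17, adjusted p = 1.64e-07). KRT15, a progenitor and basal keratin, had 1730.0, 1829 and 1701 units at 4 h and 7536, 7669 and 7556 units at 24 h. Its 24 h arrays lay more than 4 times above those at 4 h and close to each other, with 2.11 (SE 0.12, adjusted p = 1.64e-08). PI3, the secreted elastase inhibitor elafin, had 2.11 (SE 0.17, adjusted p = 5.43e-07). The RNA that hosts miR-210 (MIR210HG) and the long noncoding RNA LINC01133 rose by 3.42 and 3.32 from under 50 units. A dimmer MIR210HG probe set rose by 2.685 (adjusted p = 0.0254), but the dimmer one of LINC01133 had 0.21 (adjusted p = 0.736). KLK7, a protease of the skin, was the 1 gene of the 30 whose call was lost in an alternative, with 1.81 (adjusted p = 0.0637) without 4 h replicate 1.

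**Figure D2:**
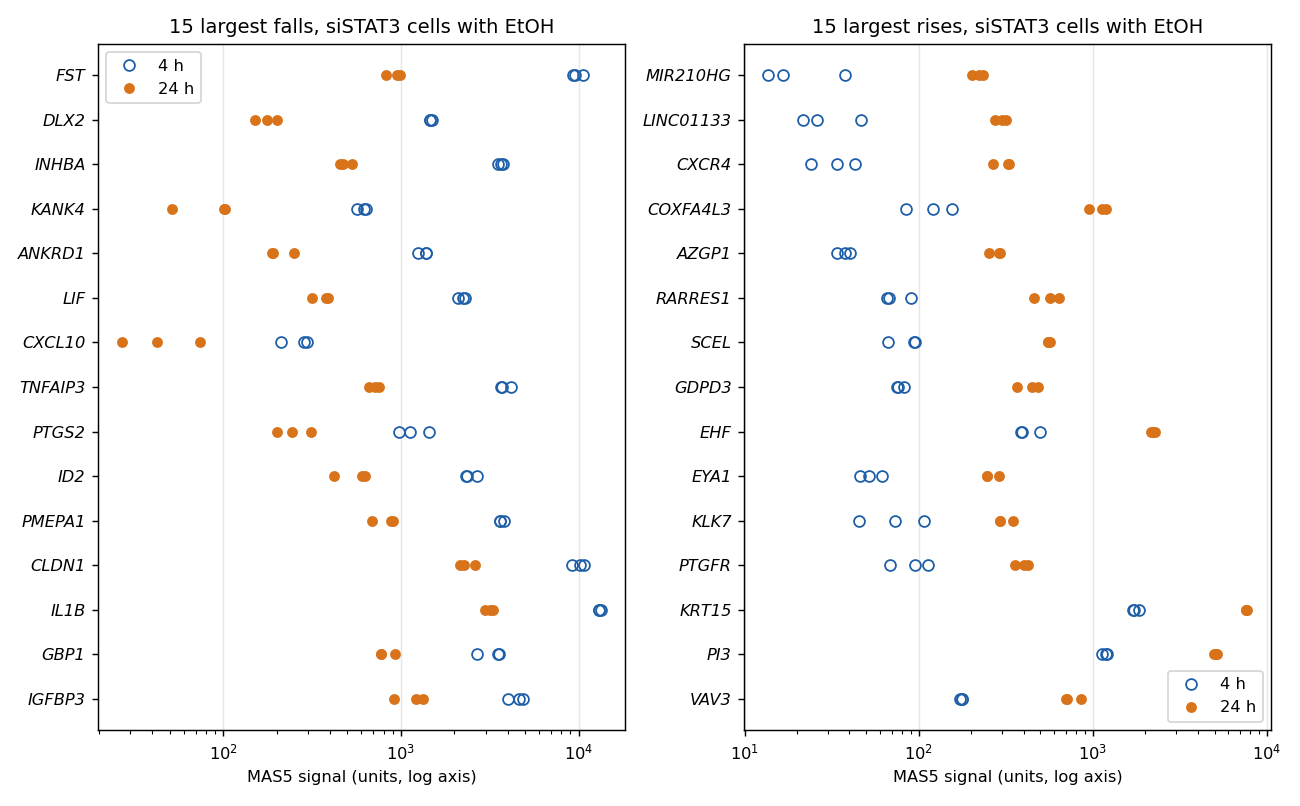
MAS5 signal (x axis, log scale) of the 15 largest falls (left) and the 15 largest rises (right) in siSTAT3 cells with EtOH, with 1 point per array, open circles for 4 h and filled circles for 24 h. The 3 and 3 arrays do not overlap for any of the 30 genes, which the rule for naming them required, and FST goes from between 9271 and 10544 units to between 820 and 988 units.

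Of 36 measured genes of mitosis 27 rose and none fell, beside 8.14% and 5.28% over all genes, and 34 had a positive change, with a median of 0.51. CDC25C, the phosphatase that activates CDK1 at entry into mitosis, had 530.0, 481 and 429.6 units at 4 h and 967, 1107 and 1140.2 units at 24 h, with no overlap and a change of 1.16 (SE 0.13, adjusted p = 1.29e-05). NDC80, a kinetochore protein that binds microtubules, had 778, 869.6 and 789.7 units at 4 h and 1599, 1765 and 1680.0 units at 24 h, a change of 1.05 (SE 0.09, adjusted p = 8.19e-07). KIF20A, a kinesin of the dividing midzone, had 1867, 1588 and 1804 units at 4 h and 3669, 3696 and 3428 units at 24 h, a change of 1.04 (SE 0.13, adjusted p = 4.97e-05). HMMR, which organises spindle microtubules, had 3412, 3701 and 3434 units at 4 h and 6919, 6663 and 6446 units at 24 h, again without overlap, and 0.93 (SE 0.08, adjusted p = 1.63e-06). The proliferation marker MKI67 rose by 0.65 and the mitotic cyclin CCNB1 by 0.42, whereas CDK1 itself had -0.07 (adjusted p = 0.806) and was not called. Values for MKI67, CCNB1 and CDK1 were chosen after they had been seen. Leaving out single arrays gave 23 to 25 rises, and the fit to the 6 arrays alone gave 15.

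Of 39 genes that open S phase and copy DNA, 21 rose (53.8%, beside 8.14% of all genes) and none fell, with a median of 0.34. E2F2, a factor that drives S phase genes, had 235, 224 and 234 units at 4 h and 544, 664 and 589 units at 24 h. Every array at 24 h was more than 2 times as bright as any at 4 h, a change of 1.37 (SE 0.10, adjusted p = 1.90e-07). ORC1, a subunit of the complex that marks replication origins, rose by 0.83, PRIM1, a subunit of primase, by 0.81, and CHAF1B, a chaperone that loads histones on new DNA, by 0.78. The helicase subunits MCM2, MCM3, MCM4, MCM5 and MCM6 rose by 0.43 to 0.68, whereas MCM7 had 0.19 (adjusted p = 0.262). CCND1, the cyclin D1 of early G1, had -0.32 (adjusted p = 0.0534) and was not called. With each array centred on its median, 14 of the 39 rose and 2 fell, and the fit to the 6 arrays alone gave 7 rises.

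The start regions of these genes hold sequence elements that are known from cell cycle genes. The CHR element (TTTGAA or TTCGAA) is bound by the complex that controls mitotic genes, and the E2F site (TTTCCCGC, TTTGGCGC, TTTGCCGC or TTTCGCGC) by E2F factors. In RefSeq promoters of build GRCh38.p14, from 250 bases before to 50 bases after the start and read on both strands, CHR letters occurred in 22 of 31 mitosis promoters (71.0%), and in 13.3% of the promoters of 15384 measured genes. They occurred in 17.2% of the promoters of genes that rose and 8.86% of those of genes that fell. E2F letters occurred in 20 of 34 promoters of the S phase list (58.8%) and in 4.36% of all. HMMR and E2F2, 2 of the rising genes above, are shown with the 150 bases before their start, 5′ to 3′ on the strand of the gene, with the matching letters in capitals (HMMR at chr5:163460482-163460631, plus strand, CHR, and E2F2 at chr1:23531234-23531383, minus strand, E2F).
HMMR: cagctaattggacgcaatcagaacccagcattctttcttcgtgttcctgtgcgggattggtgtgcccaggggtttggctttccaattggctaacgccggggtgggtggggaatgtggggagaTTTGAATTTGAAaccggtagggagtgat
E2F2: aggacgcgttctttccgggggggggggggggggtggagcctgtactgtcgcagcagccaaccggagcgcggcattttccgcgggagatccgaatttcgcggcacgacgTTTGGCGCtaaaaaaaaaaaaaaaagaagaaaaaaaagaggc
In HMMR the CHR letters occur 2 times in a row and start 28 bases before the start of transcription, and in E2F2 the E2F letters start 42 bases before it. A match describes the letters and does not show that a factor was bound.

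**Figure D3:**
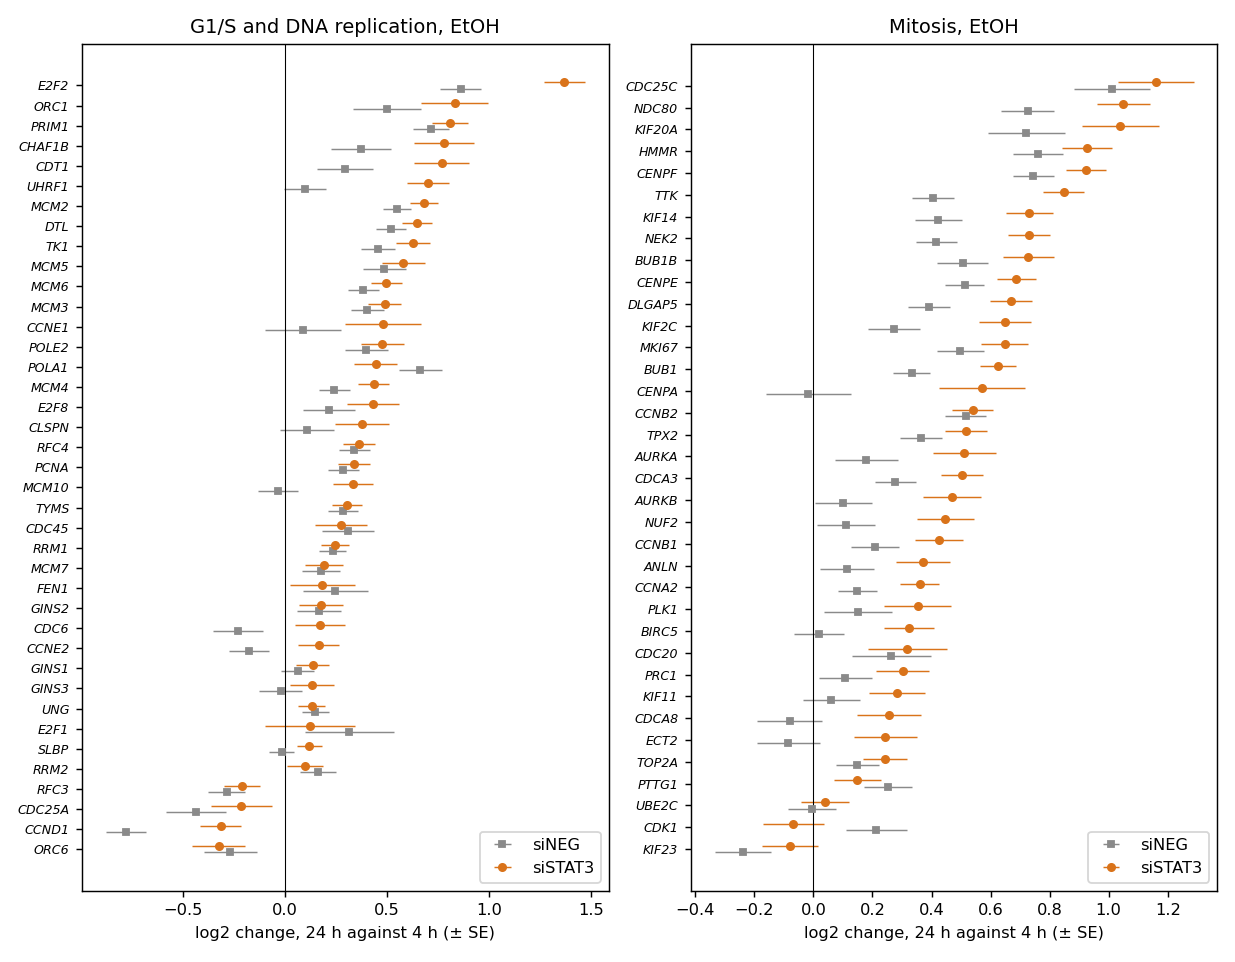
Log2 change from 4 h to 24 h (x axis, bars ± SE) for the genes of S phase and DNA replication (left) and of mitosis (right), with orange circles for siSTAT3 and grey squares for siNEG cells with EtOH. With siSTAT3 34 of 36 mitosis genes and 35 of 39 S phase genes lie above 0.

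Genes that slow the cell cycle changed in both directions. Of 28 measured CDK inhibitors and genes of growth arrest, 11 rose (39.3%, beside 8.14% of all genes), 14 were not called and 3 fell (10.7%, beside 5.28%). The median was 0.39. TXNIP, an alpha-arrestin that binds thioredoxin and limits glucose uptake, had 2406, 2647 and 2678 units at 4 h and 7202, 7238 and 7218 units at 24 h, so all 24 h arrays were far above the 4 h arrays, with 1.49 (SE 0.09, adjusted p = 1.79e-08). CCNG2, an atypical cyclin of resting cells and a FOXO target, had 1520.5, 1469 and 1543 units at 4 h and 3758, 3786 and 3544 units at 24 h and no overlap, with 1.29 (SE 0.11, adjusted p = 6.11e-07). HBP1, a repressor of cell cycle genes, rose by 1.19, and TOB1, an antiproliferative protein of the BTG family, by 0.98. The 3 falls were CDKN1A, the CDK inhibitor p21, with 3281, 3573 and 2947 units at 4 h and 1683, 1821 and 2073 units at 24 h and a change of -0.81 (SE 0.13, adjusted p = 0.000373), the CDK inhibitor CDKN1C with -0.48 and the transcription factor KLF4 with -0.57. The arrays of CDKN1A did not overlap. Among 5 alpha-arrestins, ARRDC3 and ARRDC4 rose beside TXNIP, by 0.69 and 0.50.

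The 24 measured ligands, receptors and targets of the TGF-beta superfamily had a median of -0.53, against 0.06 over all genes. Of the 24, 1 rose (4.17%, beside 8.14% of all genes), 12 were not called and 11 fell (45.8%, beside 5.28%). Next to FST and INHBA, these were ID2 and ID3, inhibitors of helix-loop-helix factors and targets of BMP signals. ID2 had 2692, 2320.0 and 2368 units at 4 h and 607, 628 and 420.0 units at 24 h, a change of -2.18 (SE 0.22, adjusted p = 5.94e-06), and ID3 had 12337, 11415 and 14263 units at 4 h and 4543, 4489 and 3601 units at 24 h, a change of -1.59 (SE 0.15, adjusted p = 1.88e-06). Neither gene had overlapping groups. BMP2, a ligand, had -1.12, SMAD7, an inhibitory SMAD, -0.99, and SKIL, a SMAD corepressor, -1.01. TGFBR3, the coreceptor betaglycan, was the only member that rose, by 0.82. The ligand TGFB1 had -0.01 (adjusted p = 0.988) and its receptor TGFBR2 0.03 (adjusted p = 0.909).

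The 26 measured targets of YAP and TEAD had a median of -0.43. Of the 26, 15 fell (57.7%, beside 5.28% of all genes), 10 were not called and 1 rose (3.85%, beside 8.14%). ANKRD1, a nuclear and sarcomeric repeat protein, had 1387, 1241 and 1381 units at 4 h and 250.3, 191 and 188 units at 24 h and a change of -2.68 (SE 0.16, adjusted p = 1.79e-08). CCN2, the matricellular connective tissue growth factor, had 4826, 5218 and 4519.5 units at 4 h and 1459.7, 1301 and 1245 units at 24 h, a change of -1.86 (SE 0.09, adjusted p = 3.59e-09), and its relative CCN1 had 16335, 18506 and 15587 units at 4 h and 6070.2, 5474 and 5615 units at 24 h, a change of -1.55 (SE 0.16, adjusted p = 4.99e-06). For these genes every array at 4 h was brighter than every array at 24 h. F3, the tissue factor that starts coagulation, had -1.89 (SE 0.12, adjusted p = 3.90e-08). The coactivator YAP1 had 0.03 (adjusted p = 0.912), and its paralog WWTR1 (TAZ) fell by 0.32 (adjusted p = 0.0106). AMOTL1, an angiomotin that binds YAP, was the member that rose, by 0.27. The TEAD site (ACATTCC or GGAATGT) occurred in 3 of 17 promoters of the list and in 2.69% of all, and CCN2 is shown as the example, with the 150 bases before its start at chr6:131951373-131951522, minus strand, GRCh38.p14, 5′ to 3′, and the matching letters in capitals.
CCN2: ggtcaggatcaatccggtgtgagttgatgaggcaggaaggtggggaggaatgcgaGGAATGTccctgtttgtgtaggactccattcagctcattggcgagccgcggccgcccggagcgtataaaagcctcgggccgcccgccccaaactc
The letters start 95 bases before the start of CCN2. Among all called genes, TEAD letters occurred in 2.80% of the promoters of those that fell and 2.44% of those that rose.

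The 29 measured NF-kappaB targets had a median of -0.58. Of the 29, 14 fell (48.3%, beside 5.28% of all genes), 14 were not called and 1 rose (3.45%, beside 8.14%). TNFAIP3, the A20 protein that ends NF-kappaB signals, had 3671, 3723 and 4155 units at 4 h and 719, 664 and 757 units at 24 h, a change of -2.43 (SE 0.10, adjusted p = 5.16e-10). PTGS2, the inducible cyclooxygenase COX-2, had 976, 1122 and 1444 units at 4 h and 311, 202 and 243 units at 24 h, a change of -2.23 (SE 0.18, adjusted p = 3.95e-07). IL1B, the cytokine interleukin-1 beta, had 13084, 13054 and 13344 units at 4 h and 3295, 3188 and 2978 units at 24 h, a change of -2.06 (SE 0.12, adjusted p = 2.05e-08). The times did not overlap for any of these, and 4 h values were 3 or more times those at 24 h. TNF fell by 2.01 at signals near background. The complement factor CFB was the member that rose, by 0.52. Of 33 cytokines and chemokines 9 fell (27.3%, beside 5.28% of all genes) and 4 rose (12.1%, beside 8.14%). Beside LIF and IL1B the falls included IL36G with -1.70, a cytokine of keratinocytes, and the rises were IL7, CCL28, TNFSF10, which encodes the death ligand TRAIL, and IL20. TNFSF10 had 28.5, 31.8 and 34.7 units at 4 h and 115, 101 and 104 units at 24 h, a change of 1.75 (SE 0.18, adjusted p = 6.21e-06), and IL20 stayed under 50 units. Of the factors themselves NFKB1 had -0.15 (adjusted p = 0.507).

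Interferon-stimulated genes moved in both directions. Of 38 measured members 13 rose (34.2%, beside 8.14% of all genes) and 4 fell (10.5%, beside 5.28%), with a median of 0.24. IFI44L, induced by type I interferon, had 395, 394 and 379.9 units at 4 h and 849.6, 836 and 923 units at 24 h. The 24 h arrays were all more than 2 times as bright as the 4 h arrays, a change of 1.16 (SE 0.09, adjusted p = 5.87e-07). OAS1, an enzyme that senses double-stranded RNA, had 175, 171 and 216 units at 4 h and 341, 412 and 382 units at 24 h, a change of 1.02 (SE 0.15, adjusted p = 0.000311), and the factor IRF7 rose by 0.86. The 4 falls were CXCL10 and CXCL11, chemokines for T cells, IFIT5, and IRF1, a factor induced by interferon gamma. GBP1, the interferon-induced GTPase among the largest falls (-1.98), was not a member of this list and is not counted. CXCL10 had 210.3, 284 and 297 units at 4 h and 42.6, 74.0 and 27.0 units at 24 h, all lower at 24 h, with -2.57 (SE 0.47, adjusted p = 0.00157), and IRF1 had -0.41 (adjusted p = 0.0295). The ISRE (TTTC, any 2 bases and TTTC), the element bound by interferon-activated factors, occurred in 20 of 30 promoters of the list (66.7%) and in 2.94% of all. IFI44L is shown as a riser with the element, with the 150 bases before its start at chr1:78620298-78620447, plus strand, GRCh38.p14, 5′ to 3′, and the match, read on the other strand, in capitals.
IFI44L: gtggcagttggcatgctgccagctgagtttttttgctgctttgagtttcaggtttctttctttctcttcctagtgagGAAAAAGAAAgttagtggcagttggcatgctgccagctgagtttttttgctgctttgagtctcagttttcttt
The match begins 73 bases before the start. Leaving out any 1 of the 6 arrays gave 1 or 2 falls, and with the 6 arrays alone 2 members rose and 1 fell.

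Among the 28 targets of STAT3 and genes of the acute phase that were measured, 5 fell (17.9%, beside 5.28% of all genes) and 1 rose (3.57%, beside 8.14%), against 6 falls and 1 rise with siNEG. With siSTAT3 the median was -0.11, and with array centring 9 fell and none rose. IL6 had 179, 180.0 and 191 units at 4 h and 107, 46.7 and 96.4 units at 24 h, lower at 24 h on every array, with -1.22 (SE 0.27, adjusted p = 0.00688). MYC, a driver of growth, had 11649, 12116 and 10309 units at 4 h and 8897, 8471 and 8382 units at 24 h, a change of -0.40 (SE 0.09, adjusted p = 0.00676). SERPINA3, an acute-phase protease inhibitor, had -0.45 (SE 0.11, adjusted p = 0.0109), and BCL2L1, an inhibitor of cell death, -0.49 (SE 0.14, adjusted p = 0.027), and OSMR, the oncostatin M receptor, -0.39 (adjusted p = 0.000632). SOCS3, the feedback inhibitor of STAT3 signals, had -0.999 (adjusted p = 0.0803) and was not called. The riser was BIRC5, which encodes survivin and is also in the mitosis list. Among 19 STAT, JAK and SOCS genes, 15.8% rose, beside 8.14% of all genes, and 10.5% fell, beside 5.28%. PIAS3 and PIAS1, inhibitors of STAT factors, rose by 0.70 and 0.55, STAT6 rose by 0.26, and STAT4 and SOCS2 fell by 0.57 and 0.43.

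The AP-1 family and the EGF ligands, which act on the growth factor pathway, had more falls than rises. Of 12 AP-1 genes 4 fell (33.3%, beside 5.28% of all genes) and none rose. JUN had 4797, 4514 and 4441 units at 4 h and 2775, 2070.5 and 2355 units at 24 h, lower at 24 h on all arrays, with -0.94 (SE 0.19, adjusted p = 0.00387). FOSL1 had 769, 629 and 841 units at 4 h and 401, 365 and 365 units at 24 h, a change of -0.98 (SE 0.15, adjusted p = 0.000447), ATF3 had -0.93 (SE 0.11, adjusted p = 4.15e-05) and FOSL2 -0.37 (SE 0.09, adjusted p = 0.0141). FOS, the founding member, had 480.2, 404 and 417 units at 4 h and 526, 598 and 505 units at 24 h, all higher at 24 h, but its change, at 0.33 (SE 0.11, adjusted p = 0.076), was not called. JUNB had -0.80 (SE 0.27, adjusted p = 0.0691) and JUND 0.04 (adjusted p = 0.88), and FOSB was near background. Of 13 EGF ligands and receptors, 5 fell (38.5%, beside 5.28% of all genes) and 2 rose (15.4%, beside 8.14%). NRG1, a ligand of ERBB3 and ERBB4, had 245, 356 and 208 units at 4 h and 79.7, 65.3 and 100.0 units at 24 h, a change of -1.71 (SE 0.25, adjusted p = 0.000251), TGFA -0.98 (SE 0.09, adjusted p = 1.88e-06) and HBEGF -0.97 (SE 0.17, adjusted p = 0.00117), EREG had -0.61 and the receptor EGFR -0.34. Without 4 h replicate 2, 24 h replicate 2 or 24 h replicate 3 the falls numbered 3. The other NRG1 probe sets, all dimmer, had changes of -1.36 to 0.34 and were not called. ERBB3, a receptor of neuregulins, had 352, 321 and 396 units at 4 h and 728, 770.4 and 694 units at 24 h, higher at 24 h without overlap, with 1.04 (SE 0.12, adjusted p = 2.20e-05), and ERBB2 rose by 0.42. Of 22 genes of ERK feedback and immediate early response 5 fell (22.7%, beside 5.28% of all genes) and 3 rose (13.6%, beside 8.14%). The rises were ETV5, an ETS factor induced by ERK, with 0.88, the orphan receptor NR4A2 with 0.79 and the ERK phosphatase DUSP6 with 0.67. PHLDA1 fell by 0.77 on its brightest probe set, but its 6 probe sets disagreed, with 2 lower and 1 higher by 0.86.

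Of 37 measured genes of epidermal differentiation 14 rose (37.8%, beside 8.14% of all genes), 23 were not called and none fell. The median was 0.68, although 15 had a mean signal of at least 100 units. SCEL, sciellin of the cornified envelope, had 66.5, 94.8 and 94.1 units at 4 h and 569, 552 and 553 units at 24 h, a change of 2.73 (SE 0.54, adjusted p = 0.00284) with the times far apart. KRT13, a keratin of stratified mucosa, had 38.4, 12.4 and 10.8 units at 4 h and 199, 197 and 178 units at 24 h, a change of 3.47 (SE 0.86, adjusted p = 0.0148). KLK10 and S100A7 rose by 3.70 and 2.64 but stayed under 100 units, so their fold change is imprecise. Of the other 11 measured keratins, which were listed apart from the differentiation genes, 2 rose and 1 fell, namely KRT15 (above), KRT14 with 0.35 (adjusted p = 0.0135), and KRT75, a keratin of hair follicles, with 253, 384 and 256 units at 4 h and 67.6, 81.7 and 87.0 units at 24 h and -1.90 (SE 0.43, adjusted p = 0.00873). Of these keratins 18.2% rose, beside 8.14% of all genes, and 9.09% fell, beside 5.28%. Of 27 genes in the list of epithelial junctions 6 fell (22.2%, beside 5.28% of all genes) and 3 rose (11.1%, beside 8.14%). CLDN1 had 9197, 10693 and 10145 units at 4 h and 2602, 2261 and 2164 units at 24 h, a change of -2.10 (SE 0.12, adjusted p = 1.79e-08), and OCLN, occludin, fell by 0.89. OVOL1, a repressor that maintains epithelial state and not itself a junction protein, fell by 1.37. DSC2, a desmosomal cadherin, had 2036, 2190.2 and 2001 units at 4 h and 3646, 3557 and 3581 units at 24 h, higher at 24 h on every array, with 0.79 (SE 0.07, adjusted p = 2.17e-06). E-cadherin (CDH1) had -0.08 (adjusted p = 0.728).

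Of 18 integrins and laminins 7 fell (38.9%, beside 5.28% of all genes) and none rose. ITGA2, the collagen receptor chain, had 7241, 8421 and 6575 units at 4 h and 2749, 2879 and 2726 units at 24 h, a change of -1.41 (SE 0.11, adjusted p = 3.95e-07), and LAMB3, a chain of laminin-332 in the basement membrane, had 11158, 10953 and 11428 units at 4 h and 5356, 5639 and 5548 units at 24 h, a change of -1.02 (SE 0.10, adjusted p = 5.26e-06). Both fell without overlap, and ITGA1 and LAMA1 fell by 1.01 and 0.82. Without 4 h replicate 2 the list had 4 falls. Of 23 matrix proteases and inhibitors 6 fell (26.1%, beside 5.28% of all genes) and 1 rose (4.35%, beside 8.14%). PLAU, urokinase, had 3089.6, 3175 and 3055 units at 4 h and 989.7, 968 and 1009 units at 24 h, a change of -1.65 (SE 0.13, adjusted p = 3.61e-07), and its receptor PLAUR had 5992, 6102 and 5997 units at 4 h and 1869, 1813 and 1516 units at 24 h, a change of -1.81 (SE 0.15, adjusted p = 5.07e-07). On every array the 4 h signal of both was at least 3 times the 24 h signal. Of the dimmer PLAUR probe sets, 1 fell by 1.74 (adjusted p = 6.75e-06) and the other had -0.17 (adjusted p = 0.327). The proteases ADAMTS1 and ADAMTS9 fell by 1.49 and 0.94. Of 28 collagens and matrix glycoproteins 6 fell (21.4%, beside 5.28% of all genes) and 3 rose (10.7%, beside 8.14%). THBS1, thrombospondin-1, had -1.32 (SE 0.12, adjusted p = 1.92e-06), TNC, tenascin C, -1.29 (SE 0.14, adjusted p = 1.40e-05), COL13A1 0.81 (SE 0.18, adjusted p = 0.00603) and MATN2 0.98 (SE 0.17, adjusted p = 0.000845). The dimmer COL13A1 probe sets had -0.30 (adjusted p = 0.783) and -0.16 (adjusted p = 0.872). Of 20 mesenchymal genes 4 fell (20.0%, beside 5.28% of all genes) and 2 rose (10.0%, beside 8.14%). SNAI2, a repressor of epithelial genes, had 3308, 3184 and 3328 units at 4 h and 2002, 1779 and 1928 units at 24 h, a change of -0.78 (SE 0.08, adjusted p = 4.08e-06), CDH11, ITGA5 and TAGLN fell by 0.83, 0.74 and 0.66, and TWIST1 and TWIST2 rose by 0.42 and 0.39. Vimentin (VIM) had -0.10 (adjusted p = 0.738) and fibronectin (FN1) -0.04 (adjusted p = 0.869).

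Some genes that respond to glucocorticoid, which the medium contains as hydrocortisone, were among the clear rises. TSC22D3, the glucocorticoid-induced leucine zipper, had 648, 649 and 693 units at 4 h and 2599.5, 3009 and 2787 units at 24 h. Its arrays at 24 h were all about 4 times those at 4 h, with 2.07 (SE 0.13, adjusted p = 2.85e-08). ZBTB16, a transcription factor, had 381, 379.6 and 309.6 units at 4 h and 838, 963 and 1009 units at 24 h, a change of 1.40 (SE 0.11, adjusted p = 3.95e-07), and KLF9 had 105, 73.9 and 87.9 units at 4 h and 266, 320.3 and 385 units at 24 h, a change of 1.86 (SE 0.20, adjusted p = 8.96e-06). As a list the glucocorticoid-responsive genes went both ways, with a median of -0.03. Of 23 members 6 rose (26.1%, beside 8.14% of all genes) and 2 fell (8.70%, beside 5.28%). FKBP5 had 0.14 (adjusted p = 0.208), the receptor NR3C1 -0.09 (adjusted p = 0.564), and ANGPTL4, an inhibitor of lipoprotein lipase that also responds to hypoxia, fell by 1.18 (adjusted p = 3.38e-05). Among 17 genes of the circadian clock NFIL3 rose by 0.58 (5.88% higher, beside 8.14% of all genes). CRY1 and CIART fell by 0.46 and 0.55 (11.8% lower, beside 5.28%).

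Genes of lipid synthesis had more rises than falls. All 19 measured genes of cholesterol synthesis had a positive change, 8 rose (42.1%, beside 8.14% of all genes) and none fell. The median was 0.33. HSD17B7, which reduces a sterol ketone, had 1705, 1757 and 1597 units at 4 h and 2628, 2627 and 2569 units at 24 h, a change of 0.63 (SE 0.07, adjusted p = 1.09e-05). INSIG1, a sterol sensor, had 2662, 2653 and 2549 units at 4 h and 3662, 3730.0 and 3663 units at 24 h, a change of 0.49 (SE 0.09, adjusted p = 0.00138), and HMGCS1, the synthase before the rate-limiting reductase, had 0.42 (SE 0.09, adjusted p = 0.00488). The arrays of HSD17B7 and INSIG1 did not overlap between the times. The number of rises depended on the processing, with 2 after array centring, 1 with the 6 arrays alone, 4 without 24 h replicate 2 and 5 without 4 h replicate 2. Of 15 genes of fatty acid synthesis 4 rose and none fell: the elongase ELOVL6 with 3791, 4414 and 4051 units at 4 h and 7659, 7555 and 7613 units at 24 h and 0.90 (SE 0.11, adjusted p = 5.24e-05), the factor SREBF1 with 0.83, acetyl-CoA carboxylase ACACA with 0.64 and the phosphatidate phosphatase LPIN1 with 0.59. The 4 rises were 26.7% of the list, beside 8.14% of all genes. Fatty acid synthase (FASN) had 0.12 (adjusted p = 0.719). A dimmer probe set of ACACA had -0.27 (adjusted p = 0.506).

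Glycolysis and hypoxia genes were mixed. Of 29 measured 6 rose (20.7%, beside 8.14% of all genes) and 2 fell (6.90%, beside 5.28%). EGLN3, a prolyl hydroxylase that is itself induced by HIF, had 35.3, 40.2 and 58.1 units at 4 h and 149, 172 and 157 units at 24 h, a change of 1.87 (SE 0.28, adjusted p = 0.000293), and PFKFB4, which sets the level of a glycolytic activator, had 139, 125 and 118 units at 4 h and 361, 383 and 344 units at 24 h, a change of 1.51 (SE 0.24, adjusted p = 0.000412). ADM, adrenomedullin, had 4864, 5045 and 5053 units at 4 h and 2459, 2299 and 2009 units at 24 h and went the other way, with -1.15 (SE 0.16, adjusted p = 0.000124). A dimmer EGLN3 probe set had 0.37 (adjusted p = 0.478), and one of PFKFB4, near background, had -0.02 (adjusted p = 0.993). The glycolytic enzymes LDHA and PGK1 had -0.05 (adjusted p = 0.906) and 0.02 (adjusted p = 0.94), and VEGFA had 0.05 (adjusted p = 0.759). Of 24 lysosome and autophagy genes 6 rose (25.0%, beside 8.14% of all genes) and none fell. The rises included the protease CTSD with 0.60 (SE 0.14, adjusted p = 0.0101) and the V-ATPase subunit ATP6V1H with 0.47 (SE 0.07, adjusted p = 0.000447). After array centring, however, 2 members rose and 1 fell, and none was called with the 6 arrays alone.

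The unfolded protein response relieves the endoplasmic reticulum of misfolded proteins. Of its 18 measured genes 8 fell (44.4%, beside 5.28% of all genes) and none rose. A negative change was seen in 16, with a median of -0.28. HERPUD1, a part of the degradation complex of the endoplasmic reticulum, had 6457, 6123 and 5989 units at 4 h and 2284, 2266 and 2337 units at 24 h, a change of -1.43 (SE 0.09, adjusted p = 2.41e-08). DNAJB9, a cochaperone, had 2448, 2455 and 2361 units at 4 h and 1071, 1043 and 1015 units at 24 h, a change of -1.22 (SE 0.08, adjusted p = 7.91e-08), and XBP1, the factor that is spliced during stress, had 3037, 3149.5 and 3302 units at 4 h and 1491, 1432 and 1344 units at 24 h, a change of -1.15 (SE 0.09, adjusted p = 5.99e-07). For all of these the lowest 4 h array was brighter than the highest 24 h array, and the chaperone HSPA5 (BiP) fell by 0.88 (adjusted p = 8.32e-06). Of 25 genes of MYC and ribosome biogenesis 7 fell (28.0%, beside 5.28% of all genes) and none rose, with a median of -0.31. The falls were led by RRP12 with -0.78 (SE 0.17, adjusted p = 0.00488) and RRS1 with -0.63 (SE 0.11, adjusted p = 0.000965), both factors of ribosome assembly. The fit to the 6 arrays alone gave 1 fall in the latter list. Genes of ATF4 and the amino acid response were split. Of 31, 5 rose (16.1%, beside 8.14% of all genes) and 5 fell (16.1%, beside 5.28%). DDIT3 (CHOP) fell by 0.73, ATF3 (above) and the cystine transporter SLC7A11 by 0.69, and VLDLR rose by 0.74, and the median of 0.05 turned to -0.04 with array centring. Leaving out single arrays gave 1 to 4 rises and 3 to 5 falls in that list, with the lowest number of rises without 24 h replicate 3.

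Targets of p53 were split too, with 5 of 24 rising (20.8%, beside 8.14% of all genes) and 7 falling (29.2%, beside 5.28%). GADD45A, a sensor of stress and damage, had 6201, 6321 and 6595 units at 4 h and 2631, 2561 and 2054 units at 24 h, a change of -1.41 (SE 0.09, adjusted p = 2.85e-08), and PLK2, a polo-like kinase, had 2247, 2317 and 2233 units at 4 h and 957, 835 and 791 units at 24 h, a change of -1.40 (SE 0.08, adjusted p = 2.04e-08). GDF15, a secreted stress cytokine, had 237, 219 and 184 units at 4 h and 375, 453 and 392 units at 24 h, a change of 0.93 (SE 0.13, adjusted p = 0.000114). In all 3 genes the times were apart, with GDF15 alone higher at 24 h. MDM2 had 0.04 (adjusted p = 0.839). Of 22 NRF2 targets 4 fell (18.2%, beside 5.28% of all genes) and 2 rose (9.09%, beside 8.14%). Thioredoxin reductase TXNRD1 had -0.95 (SE 0.09, adjusted p = 2.23e-06), heme oxygenase HMOX1 -0.65 (SE 0.19, adjusted p = 0.0427) and ALDH3A1 0.61 (SE 0.15, adjusted p = 0.012). After array centring 6 members fell and none rose. Leaving out any array but 4 h replicate 3 gave 2 falls. Of 27 Wnt genes 4 rose (14.8%, beside 8.14% of all genes) and 2 fell (7.41%, beside 5.28%). DKK1, a secreted Wnt inhibitor, had 19355, 20375 and 18135 units at 4 h and 10099, 9882 and 9785 units at 24 h, a change of -0.96 (SE 0.09, adjusted p = 1.90e-06) without overlap, and the receptors FZD2 and FZD3 rose by 0.84 and 0.62. Of 18 Notch genes MFNG, a sugar transferase that modifies Notch, was the only call (5.56% lower, beside 5.28% of all genes), with -0.63 (SE 0.19, adjusted p = 0.044). Of the remaining genes named in the text of the study for RNA, ETS2 had 0.17 (adjusted p = 0.514), BMAL2 0.04 (adjusted p = 0.919) and LIN28B, near background, 0.72 (adjusted p = 0.4). The probe sets of ETS2 and BMAL2 disagreed, and a dimmer one fell in each gene, by 0.50 (adjusted p = 0.00226) for ETS2 and by 0.92 (adjusted p = 0.0087) for BMAL2.

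The same times were compared in siNEG cells, where 1348 genes rose (6.82%) and 1092 fell (5.52%). The 2 time comparisons share no arrays. Of the genes called with siSTAT3, 1665 were called with siNEG as well, which is 62.7% of the siSTAT3 calls and 68.2% of the siNEG calls, and 1663 of them in the same direction. Of all siSTAT3 calls, 96.8% had the same sign with siNEG. Across the 10699 genes with a mean signal of at least 100 units, the changes had a Pearson r of 0.82 and a Spearman coefficient of 0.74, given as a description because genes are not independent. FST had -3.61 (SE 0.23, adjusted p = 8.02e-08) with siNEG, INHBA -2.55 (SE 0.09, adjusted p = 1.76e-10), KRT15 1.62 (SE 0.12, adjusted p = 3.26e-07) and TSC22D3 1.73 (SE 0.13, adjusted p = 2.94e-07). In the lists, 16 of 36 mitosis genes rose with siNEG (median 0.26) and 14 of 39 S phase genes rose and 1 fell (median 0.24). The difference of the changes was called for no gene of either list, with a lowest adjusted p of 0.302 in the first and 0.344 in the second. For the YAP and TEAD list 0 rose and 17 fell with siNEG, for the TGF-beta list 2 rose and 12 fell, for NF-kappaB targets 0 rose and 13 fell, for epidermal differentiation 11 rose and 0 fell and for the unfolded protein response 0 rose and 8 fell. Own fits of 6 arrays to each siRNA gave 747 calls with siSTAT3 and 157 with siNEG.

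**Figure D4:**
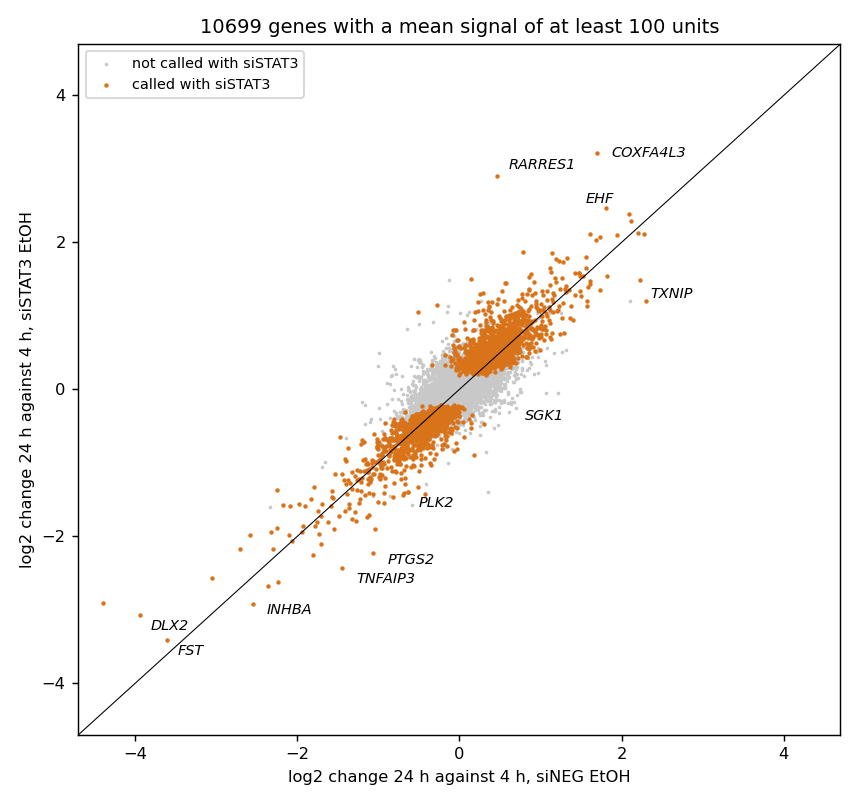
Log2 change from 4 h to 24 h in siNEG cells (x axis) against that in siSTAT3 cells (y axis) with EtOH for 10699 genes with a mean signal of at least 100 units, where orange points were called with siSTAT3 and the line marks equal changes. Most points follow the line (Pearson r 0.82), and RARRES1 lies above it.

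The difference between the changes was tested directly, and 3 genes (0.0152%) passed an adjusted p of 0.05, 1 with a higher (0.00506%) and 2 with a lower change with siSTAT3 (0.0101%), while 1290 genes (6.52%) had an unadjusted p under 0.05. RARRES1 had 121, 114 and 128 units at 4 h and 155, 206 and 146 units at 24 h with siNEG, so it rose more than 5-fold with siSTAT3 and had a change of 0.47 (SE 0.21, adjusted p = 0.204) with siNEG. The difference was 2.43 (SE 0.29, adjusted p = 0.00957). The siSTAT3 arrays were below the siNEG arrays at 4 h and above them at 24 h. A further RARRES1 probe set gave a difference of 3.48 (adjusted p = 0.00957) and the last one 4.03 (adjusted p = 0.143). TNFAIP3 had 2164, 2263 and 2373 units at 4 h and 901, 764 and 830.0 units at 24 h with siNEG, a fall of -1.45 (SE 0.10, adjusted p = 1.38e-07), and the difference was -0.98 (SE 0.14, adjusted p = 0.0371). With siSTAT3 it was brighter than with siNEG on all arrays at 4 h and dimmer on all arrays at 24 h, by less. Its other probe set gave -1.02 (adjusted p = 0.231). ZNF439, a zinc finger gene below 30 units on each of these 12 arrays and so near background, is named because it was the remaining call and was chosen after its values were seen. It had 24.1, 25.6 and 11.9 units at 4 h and 4.17, 3.67 and 4.35 units at 24 h with siSTAT3 and 4.25, 6.79 and 1.85 units at 4 h and 19.9, 15.5 and 29.6 units at 24 h with siNEG, so the direction was opposite, and the difference was -4.74 (SE 0.71, adjusted p = 0.0498). With the 12 arrays of the comparison alone none of the 3 was called. When each of these arrays was left out in turn, RARRES1 kept its call 11 of 12 times, with differences of 2.32 to 2.58, and lost it without siSTAT3 4 h replicate 3 (2.34, adjusted p = 0.0515, against 0.00888 to 0.0515 over the 12). TNFAIP3 lost its call 11 of 12 times, at differences of -1.04 to -0.92, and kept it without siNEG 24 h replicate 2. ZNF439 lost its call 11 of 12 times as well and kept it without siNEG 4 h replicate 2.

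**Figure D5:**
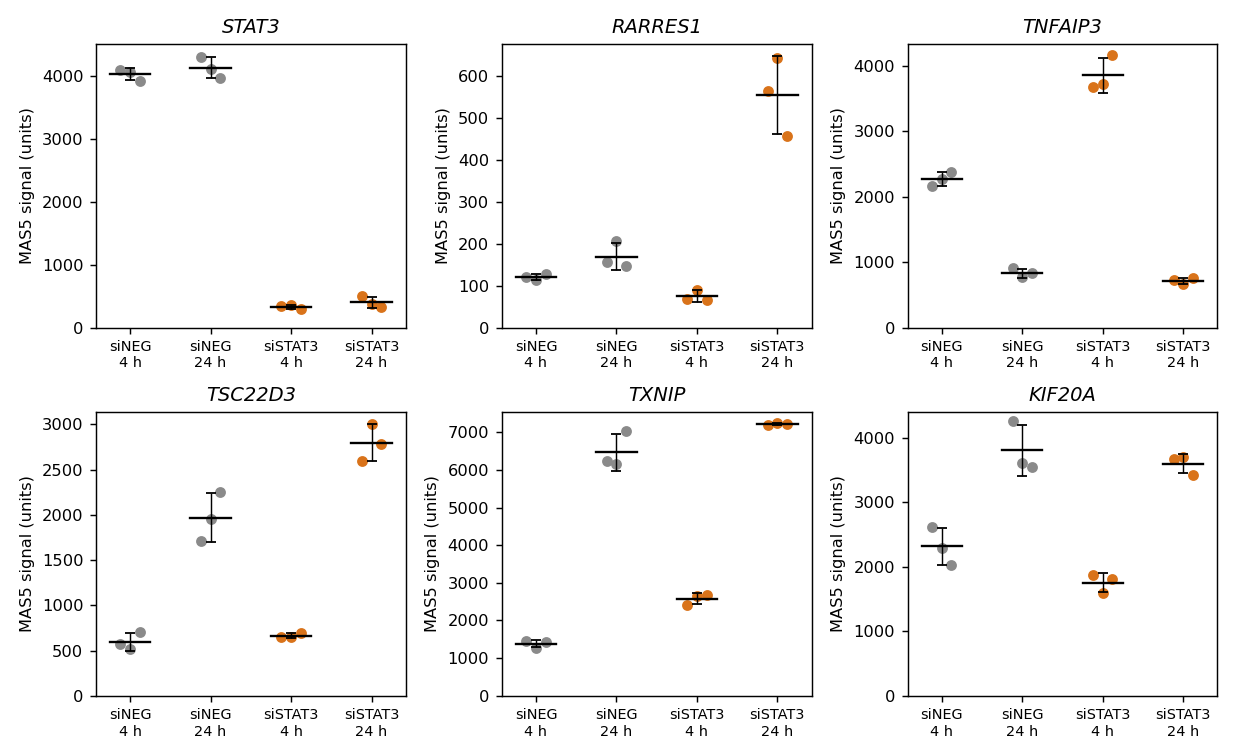
MAS5 signal (y axis, from 0) of 6 genes on each array of the 4 EtOH groups, with grey points for siNEG, orange points for siSTAT3 and black bars for the mean ± SD of 3 arrays. STAT3 is at most 495 units on the siSTAT3 arrays and at least 3914 units on the siNEG arrays, and RARRES1 is highest on the 3 siSTAT3 arrays at 24 h.

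Other genes came close in the test of the difference. The kinase gene PLK2 had -0.64 (SE 0.08, adjusted p = 9.00e-05) with siNEG, and its difference of -0.76 (SE 0.12, adjusted p = 0.0599) missed the threshold, although the gene was called in 5 of the alternatives. SGK1, a kinase induced by glucocorticoid and serum, had 1936, 1886 and 1898 units at 4 h and 1708, 1664 and 1690.4 units at 24 h with siSTAT3 and 1819.9, 1743 and 1609 units at 4 h and 2779, 2459 and 3021 units at 24 h with siNEG. It changed by -0.18 (adjusted p = 0.306) with siSTAT3 and by 0.67 (SE 0.09, adjusted p = 0.000164) with siNEG, a difference of -0.85 (SE 0.13, adjusted p = 0.0599). TXNIP had 1446, 1279 and 1438 units at 4 h and 6233, 6150.3 and 7045 units at 24 h with siNEG, a rise of 2.22 (SE 0.09, adjusted p = 3.94e-10). The difference of -0.73 (SE 0.12, adjusted p = 0.0989) missed the threshold, and the siSTAT3 arrays were brighter than the siNEG arrays at 4 h. SLC46A1, a folate transporter, had 1025.5, 1098 and 1074 units at 4 h and 398, 399 and 418 units at 24 h with siSTAT3 and a difference of -0.76 (SE 0.13, adjusted p = 0.0989). Of the alternatives counted for PLK2, SGK1 was called in 5, SLC46A1 in 4 and TXNIP in 3. SGK1 and SLC46A1 were chosen after their values were seen. A gene that missed the threshold may still have differed, and a difference of changes had a larger SE (median 0.157) than a change with time (median 0.111).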

How the data were processed

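Total RNA was labelled by the authors with a 3 prime amplification kit and hybridised to Affymetrix Human Genome U133 Plus 2.0 arrays. The authors deposited 1 signal intensity for each probe set on each array, after MAS5 background correction, normalization and summarisation, as their methods and the submitters' processing notes state. The values are linear, and the scaling target is not given in the sources used here. Groups came from the titles. Signals were log2 transformed with nothing added and no filter, and all 23 arrays, in 8 groups with a mean each, entered 1 linear model in limma 3.58.1 in R 4.3.3 (15 residual and 1.27 prior degrees of freedom). Adjusted p is the Benjamini-Hochberg value over 54675 probe sets. Of these, 41097 have 1 gene symbol in the platform annotation, 1801 have several and 11777 have none, and only the first kind was used to name genes. Symbols were updated through gene identifiers, and 54 probe sets kept an old one. Each gene is read from the probe set that was brightest on average (log2 scale). The fit was tested on simulated data, which recovered 53 of 100 2-fold and 59 of 100 4-fold changes of the siSTAT3 time comparison among 54675 probe sets, with 10 false calls and no call of the wrong sign.

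Named genes were STAT3, the 15 largest rises and falls among called genes whose brighter group averaged 200 units or more and whose arrays did not overlap, up to 4 called members per list, the called differences between siRNAs and genes that the study's text names. The members and the gene lists were chosen with earlier results of these data known, and the lists come from general knowledge. List counts carry no test. Replicate numbers did not pair the samples: same-numbered arrays of the comparison had correlations of deviations of -0.0691 to -0.0175, so no block was used. No 2 arrays were identical. Alternatives changed the arrays fitted, the scaling, the offset, the filter, the prior, the threshold, the probe sets and the block. Promoters are RefSeq sequences. Some listed genes are not analysed here.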

Additional observations from a re-analysis of the deposited data

Results flagged for a closer look

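In 3 genes the change with time differed between siSTAT3 and siNEG cells in the test of the difference itself. RARRES1 rose by 2.90 with siSTAT3 and had 0.47 with siNEG, a difference of 2.43 (adjusted p = 0.00957). TNFAIP3 fell in both, by 2.43 with siSTAT3 and with a change of -1.45 with siNEG, a difference of -0.98 (adjusted p = 0.0371). ZNF439 had -2.26 with siSTAT3 and 2.47 with siNEG, a difference of -4.74 (adjusted p = 0.0498) at signals near background. Leaving out single arrays ended the call of TNFAIP3 and of ZNF439 in 11 of 12 cases each and that of RARRES1 in 1 of 12, without siSTAT3 4 h replicate 3.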

How the results depend on the processing

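The counts of changes with time moved most with the arrays that set the spread and with the threshold. With siSTAT3, 422 genes rose and 325 fell when the arrays of the comparison alone were fitted, 502 and 404 passed the limits of the study (p under 1e-04 and an absolute log2 change above 0.5), and 236 and 170 passed an adjusted p with a change of at least 2-fold. With siNEG the same settings gave 65 and 92, 381 and 385, and 148 and 180. Centring each array on its median left 960 rises with siSTAT3. Leaving out 1 array gave 1130 to 1297 rises and 810 to 862 falls with siSTAT3, and 964 to 1077 rises and 764 to 874 falls with siNEG. The replicate block gave 1574 rises and 1038 falls with siSTAT3. The numbers did not pair the 6 arrays of the comparison, but 14 of 23 arrays were closest to arrays of their own number. For the difference between siRNAs, where 1 gene was higher and 2 were lower, higher and lower calls were 0 and 0 with the 12 arrays of the comparison, 2 and 4 with 16 units added, 5 and 7 with 50 added, 7 and 11 among probe sets of at least 100 units, 8 and 15 with a trended robust prior and 3 and 10 by the limits of the study. The lower calls were 4 after quantile normalization, 1 at 2-fold and 0 with the replicate block, where TNFAIP3 and ZNF439 both had an adjusted p of 0.0659, and leaving out 1 array gave 0 to 2 in either direction. The cause was not tested. Of 149 called named genes 0 reversed, 96 kept their call in every one of the up to 15 alternatives that tested them (dim genes were not tested in the filter on signals), 50 lost it with the 6 arrays alone and 23 without some single array. The STAT3 change stayed uncalled, at 0.08 to 0.38 over the alternatives. Uncalled genes reversed: BMAL2 to -0.0423 and JUND to -0.0397 with centring, and without single arrays BMAL2 ranged from -0.0253 to 0.13, FOSB from -0.66 to 0.19 and JUND from -0.0029 to 0.0934. The number of arrays, 3 in each group, and dim signals limited the precision.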
